A study of Mus musculus with 9 samples.

Results

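Mature microRNAs (miRNAs) carried by extracellular vesicles (EVs) of bronchoalveolar lavage fluid (BALF) were compared between mice exposed to 1 ppm ozone (O3) and mice exposed to filtered air (FA). The miRNAs compared were the unmodified mature forms, with genomic copies of one mature miRNA averaged, whose mean over the 6 pools of these groups was above 50 RPMMM (reads per 1000000 reads mapped to miRNAs). This rule kept 223 of the 402 mature miRNAs in the table, which held 1308 entries when sequence variants (isomiRs) and copies were counted separately. The members just inside the threshold were miR-122-5p (50.1 RPMMM), miR-421-3p (50.4) and miR-133a-3p (50.6), and those just outside were miR-342-5p (48.5), miR-324-5p (48.5) and miR-664-3p (48.3). Of the 223, 29 had a mean above the threshold in 1 group only, 19 of them in the FA group and 10 in the O3 group, and the direction of their means followed from this rule. The counts and medians of lists given here include them and are descriptions.

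Each of the 3 pools of a group was 1 small RNA library. All animals were female C57BL/6J mice, 8 to 10 weeks old, exposed once for 3 h to FA or O3, and BALF was collected the next day. FA pools combined BALF of 4 mice and O3 pools that of 3 mice, so the number of mice in a pool and the exposure cannot be told apart. Likewise the exposure session and O3 cannot be told apart, since a single session is listed for this dose. No animal carried a transgene according to the labels, and a pool of several mice gives no measure of the spread between mice. A further 3 pools of mice exposed to 2 ppm O3 entered the statistical model for its estimate of spread but are not described here.

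The pools held an estimated 535534 to 773268 miRNA reads in the FA group and 555107 to 860958 in the 1 ppm O3 group, read from the step between neighbouring low values. The lowest value above 0 corresponded to about 10 reads in every pool, so a miRNA listed at 0 may have had fewer reads than that. FA pool 3 stood apart for miRNAs of striated muscle. In the FA pools miR-1a-3p was at 70.0, 419 and 2231 RPMMM, against 61.6 to 89.9 in the O3 pools, and results that rest on this pool are given with and without it.

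A mature miRNA is cut from a hairpin precursor, whose 5p or 3p arm is loaded into an Argonaute protein, and it pairs with messenger RNAs mainly through bases 2 to 8 at its 5′ end, the seed. Members of a family share a seed. Cells release miRNAs in EVs, and the airway surface is lined by epithelial cells and patrolled by macrophages and neutrophils, all of which can contribute EVs to BALF. Some miRNAs are largely restricted to one lineage, such as the miR-200 family to epithelium, miR-34b, miR-34c and miR-449 to multiciliated cells, miR-223 to myeloid cells, miR-451 to red cells and miR-1 and miR-133 to muscle. In a bulk preparation of this kind, fewer cells of a type, fewer EVs from each of them and less miRNA per EV cannot be told apart.

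The sequences of the miRNAs on which the results turn are shown first, since several pairs share a seed. They are mature sequences of RefSeq (GRCm38.p6), 5′ to 3′, with the seed in capitals, and 193 of the 223 miRNAs had one. The first set holds the miRNAs that were lower after O3, with pairs of one seed next to each other, and let-7a-1-3p, which was not called, for the seed it shares with let-7b-3p.
miR-200a-5p: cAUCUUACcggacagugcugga
miR-200b-5p: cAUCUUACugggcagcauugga
miR-34b-3p: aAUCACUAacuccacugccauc
miR-34c-3p: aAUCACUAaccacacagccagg
let-7b-3p: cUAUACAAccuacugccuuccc
let-7a-1-3p: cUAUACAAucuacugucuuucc
miR-127-3p: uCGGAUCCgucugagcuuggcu
miR-16-1-3p: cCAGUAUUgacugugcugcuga
miR-451: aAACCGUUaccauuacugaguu
miR-205-5p: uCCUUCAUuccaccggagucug

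The second set holds miRNAs that were higher after O3, and, for their shared seed, miR-221-3p and miR-222-3p, which are described further on.
miR-2137: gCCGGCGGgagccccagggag
miR-322-3p: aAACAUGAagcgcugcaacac
miR-22-3p: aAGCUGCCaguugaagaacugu
miR-140-3p: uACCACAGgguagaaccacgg
miR-221-3p: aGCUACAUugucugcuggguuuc
miR-222-3p: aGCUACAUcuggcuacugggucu

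With the values as deposited, 4 miRNAs were differentially expressed (DE) and higher after 1 ppm O3 and 8 were DE and lower. DE means a change of at least 2-fold, that is a log2 fold change of at least 1 in size, and an adjusted p (Benjamini-Hochberg) under 0.05 in limma's moderated test on log2(RPMMM + 1). These were 1.79% and 3.59% of the 223 miRNAs tested. The DE miRNAs include 3 with a mean above the threshold in 1 group only. Of these, miR-5115 and miR-5105 passed through the O3 group alone and miR-127-3p through the FA group alone. The direction of their means followed from that rule, so their calls are given as descriptions. An adjusted p under 0.05 at any size of change was reached by 6 higher miRNAs (2.69%) and 17 lower ones (7.62%), and 63 miRNAs had an unadjusted p under 0.05. Among all tested miRNAs, 17 (7.62%) were higher and 60 (26.9%) lower in every O3 pool than in every FA pool. The count of DE lower miRNAs depended on single pools, and was 2 without FA pool 3, 4 without O3 pool 1 and 5 without FA pool 2. The count with an adjusted p under 0.05 in either direction was 23, and was 7, 9 and 11 without those pools in the same order and 15 without O3 pool 3.

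**Figure D1:**
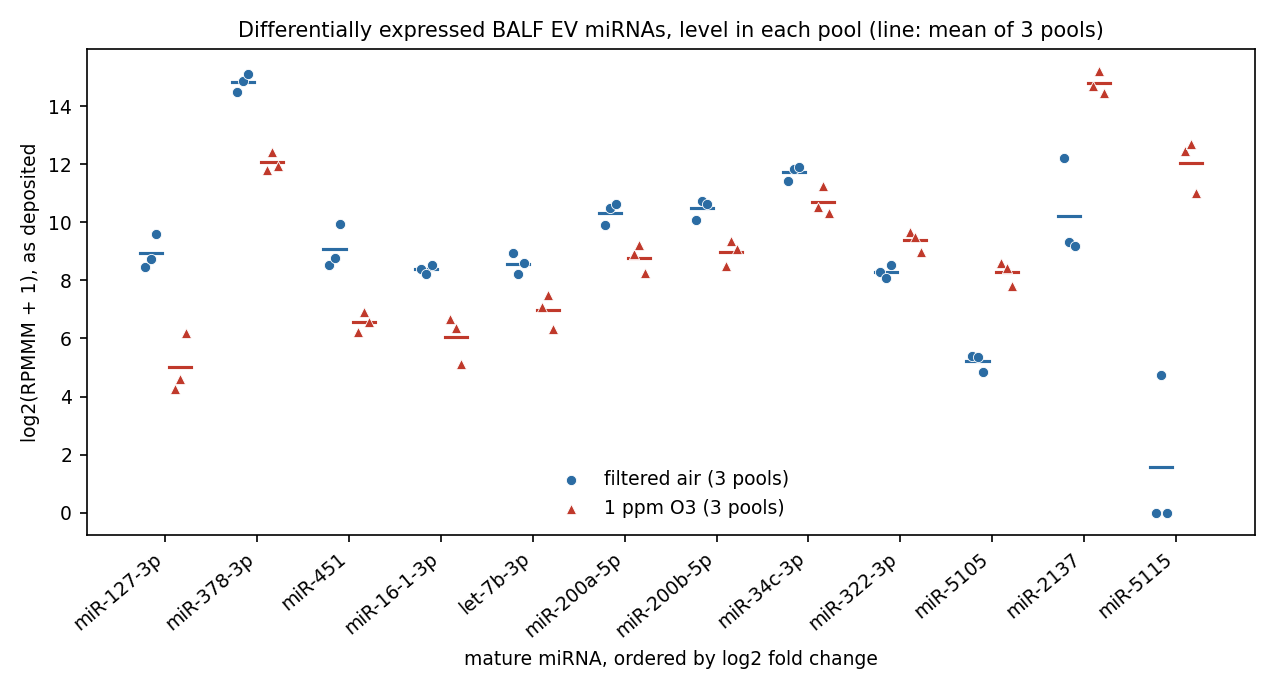
Level of the 12 DE miRNAs in each pool, as log2(RPMMM + 1) of the deposited values, for 3 FA pools (circles) and 3 pools exposed to 1 ppm O3 (triangles), with the mean of each group as a line. The groups do not overlap for any of the 12 miRNAs, the DE rule having chosen them, and miR-5115 was listed at 0 in 2 of the 3 FA pools.

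The values are shares of a pool's miRNA reads, so a rise of some entries lowers the others. miR-2137 and the hairpins whose names had no match in the RefSeq gene table (miR-1940, miR-3096, miR-3096b, miR-5097, and miR-5102, miR-5105, miR-5109, miR-5115), with their isomiRs, took 0.394% to 0.949% of the total in the FA pools and 5.52% to 10.97% in the O3 pools. The median log2 fold change over the 223 miRNAs was -0.24, with 147 below 0 and 76 above. With these entries left out of the total the median was -0.13. Under median-of-ratios scaling, which divides each pool by the median ratio of its miRNAs to their geometric means over the 9 pools, the scaling factors were 1.26 to 1.30 in the FA pools and 1.06 to 1.17 in the O3 pools, and the median was -0.04, with 117 below 0 and 106 above.

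Under this scaling 4 miRNAs (1.79%) were DE and higher and 5 (2.24%) DE and lower, and an adjusted p under 0.05 was reached by 13 higher (5.83%) and 7 lower (3.14%) miRNAs. The split of the calls thus moved from 6 against 17 to 13 against 7. Without overlap between the pools were 35 higher (15.7%) and 31 lower (13.9%) miRNAs. Of the 12 DE miRNAs, 9 were DE under both scalings, and let-7b-3p, miR-34c-3p and miR-451 were DE only as deposited. For calls by adjusted p, 13 were shared, 10 were called only as deposited and 7 only after scaling.

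**Figure D2:**
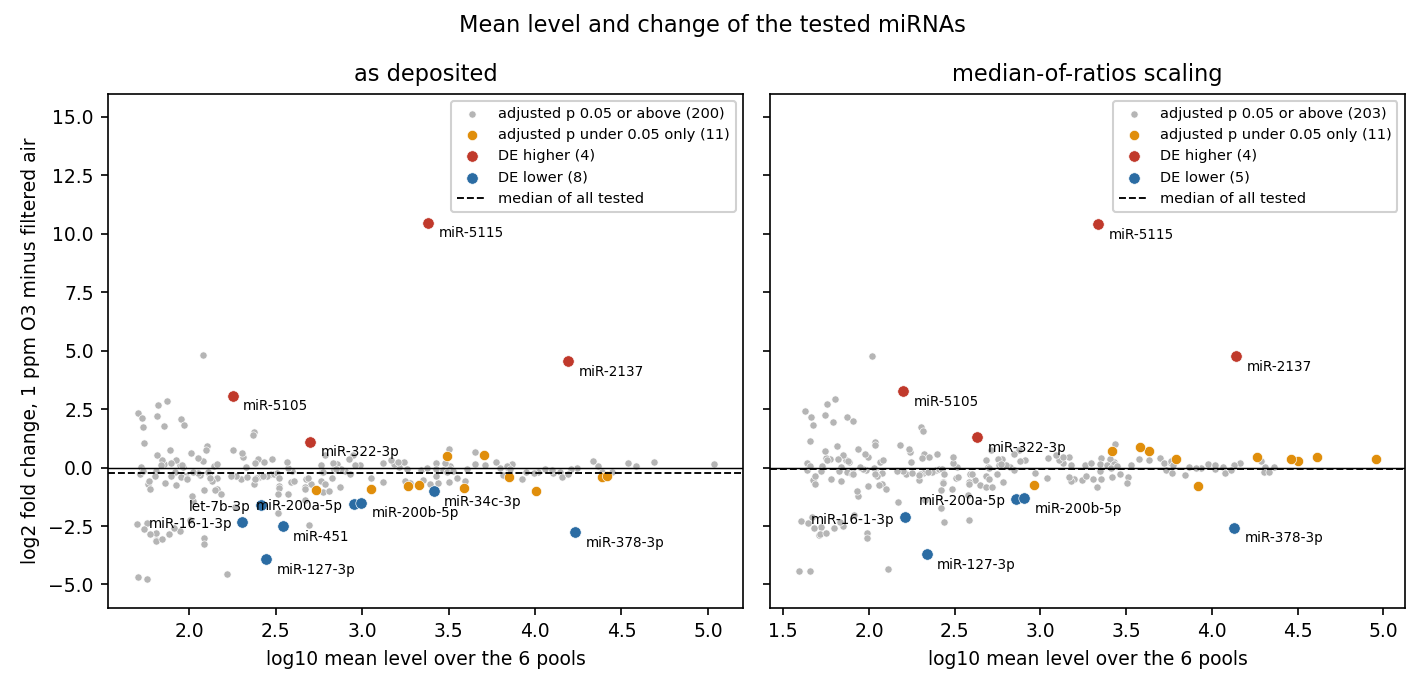
Log10 of the mean level over the 6 pools (x axis, RPMMM or scaled RPMMM) and log2 fold change of 1 ppm O3 minus FA (y axis) for 223 miRNAs, as deposited (left) and under median-of-ratios scaling (right). Colours give the calls, with their number in the legend, and the dashed line is the median of all tested miRNAs, at -0.24 on the left and -0.04 on the right.

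The largest decrease of an abundant miRNA was that of miR-378-3p, which is encoded within the gene of the mitochondrial regulator PGC-1β and known for its part in energy metabolism. miR-378-3p was at 23319.55, 30205 and 35337 RPMMM in the FA pools and at 3603, 5526 and 3973 in the O3 pools. Every O3 pool lay far below every FA pool, by 6.78-fold between the group means. Its log2 fold change was -2.77 (SE 0.18, adjusted p = 8.3e-06 by limma), and -2.57 under median-of-ratios scaling. The 4 isomiRs of miR-378-3p that passed the same threshold were lower as well. Those with means above it in both groups had log2 fold changes of -3.13 and -2.50. The others, at -7.15 and -5.09, passed it through the FA group alone, so their direction followed from the way they were chosen. The value of -7.15 was against O3 pools that were all listed at 0.

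miR-127-3p and miR-451 fell by more than most, at low levels. miR-127-3p comes from the imprinted Dlk1-Dio3 locus, which is expressed from the maternal chromosome and most active in embryonic and mesenchymal tissues (hairpin at chr12:110831042-110831138, plus strand, mm9, in no annotated gene). It was at 350.1, 424 and 779 RPMMM in the FA pools and at 18.3, 23.4 and 72.0 in the O3 pools, a log2 fold change of -3.91 (SE 0.79, adjusted p = 0.014 by limma). It was no longer called without FA pool 3, its highest pool (adjusted p = 0.072), or without O3 pool 1 (adjusted p = 0.069). The other Dlk1-Dio3 miRNAs were near the detection limit. Among the 25 listed, 3 were tested (miR-127-3p, miR-434-3p and miR-541-5p) and 1 was DE and lower, where 3.59% of all tested miRNAs were. All 3 passed the threshold through the FA group alone, with means below 50 RPMMM in the O3 pools. Their lower level thus followed from the way they were chosen. Summed over the 25, the level was 667 to 1625 RPMMM in the FA pools and 128 to 216 in the O3 pools.

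miR-451, which is matured by Argonaute2 without Dicer and accumulates in red cells, was at 372, 438 and 984 RPMMM in the FA pools and at 73.2, 121 and 94.1 in the O3 pools (chr11:77886672-77886743, plus strand, mm9). Its log2 fold change was -2.52 (SE 0.67, adjusted p = 0.041 by limma), and under median-of-ratios scaling -2.32 (adjusted p = 0.055). The call was lost when any 1 of the 6 pools was left out, with adjusted p-values from 0.053 without FA pool 1 to 0.15 without O3 pool 1. miR-486-5p, which is abundant in red cells and muscle, was at 339, 475 and 738 RPMMM against 76.5, 190.1 and 144, a log2 fold change of -1.93 that was not called (adjusted p = 0.078). Both had their highest value in FA pool 3 and neither overlapped between the groups. Of the 5 erythroid miRNAs in the table, 2 were tested and 1 was DE and lower, where 3.59% of all tested miRNAs were. The summed level of the 5 was 801 to 1757 RPMMM in the FA pools and 150 to 311 in the O3 pools. miR-144-3p and miR-144-5p, which share a precursor transcript with miR-451, were at 0 in every O3 pool and at no more than 35.5 RPMMM in any FA pool.

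The miR-200 family maintains epithelial identity by repressing the transcription factors Zeb1 and Zeb2. Of 8 tested members, 7 had a log2 fold change below 0, where 147 of all 223 tested miRNAs had one. The median of the 8 was -0.31 as deposited and -0.12 under median-of-ratios scaling. DE and lower were 2 of the 8, where 3.59% of all tested miRNAs were. A further one, miR-200b-3p, passed the adjusted p only. One uncalled member, miR-141-5p, passed the threshold through the FA group alone (mean 104 RPMMM against 10.8). The 2 DE members were the 5p arms of the neighbouring hairpins miR-200a (chr4:155429005-155429094) and miR-200b (chr4:155429790-155429859), both on the minus strand of mm9 within introns of Ttll10 and the noncoding transcript Gm13648, and they share the seed printed above.

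miR-200b-5p was at 1093, 1715 and 1574 RPMMM in the FA pools and at 361, 658 and 541 in the O3 pools, a log2 fold change of -1.51 (SE 0.25, adjusted p = 0.0058 by limma). miR-200a-5p was at 950.3, 1455 and 1570.4 RPMMM against 481, 591 and 303, a log2 fold change of -1.55 (SE 0.36, adjusted p = 0.031), and was not called without FA pool 2, FA pool 3, O3 pool 1 or O3 pool 3 (adjusted p from 0.093 to 0.12). The highest O3 pool was below the lowest FA pool for each. Both remained DE under median-of-ratios scaling, with log2 fold changes of -1.31 and -1.35.

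The 3p arms, which are the abundant products of these hairpins, moved less. miR-200b-3p was at 27087, 29565 and 31953 RPMMM in the FA pools and at 22153, 22605 and 23085 in the O3 pools (log2 fold change -0.38, adjusted p = 0.036), and under median-of-ratios scaling its log2 fold change was -0.19 with an adjusted p of 0.19. As deposited, this call was lost without any 1 pool but FA pool 1 (adjusted p from 0.080 to 0.14). miR-200a-3p, miR-200c-3p, miR-429-3p and miR-141-3p had log2 fold changes of -0.21, -0.24, -0.07 and 0.16 and were not called. In the sum over the family, the FA pools lay between 60863 and 64525 RPMMM and the O3 pools between 47660 and 52688.

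miR-34b, miR-34c and the miR-449 hairpins are expressed in multiciliated cells, where they promote the formation of motile cilia. Of 6 tested members 1 was DE and lower, where 3.59% of all tested miRNAs were. The median log2 fold change was -0.94 as deposited and -0.74 under median-of-ratios scaling, including miR-449a-3p, which passed the threshold through the FA group alone (mean 300.4 RPMMM against 28.9). miR-34c-3p was at 2778, 3696 and 3819 RPMMM in the FA pools and at 1494, 2464 and 1288 in the O3 pools (log2 fold change -1.02, SE 0.22, adjusted p = 0.023 by limma; chr9:50911139-50911215, minus strand, mm9). miR-34b-3p, from the neighbouring hairpin at chr9:50911667-50911750, was at 4583, 4566 and 5726 RPMMM against 2022, 4116 and 2387 (log2 fold change -0.86, adjusted p = 0.041).

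O3 pool 2 was the highest O3 pool for both, and the groups did not overlap as deposited. Under median-of-ratios scaling they overlapped for both, and the adjusted p was 0.068 for miR-34c-3p and 0.13 for miR-34b-3p. As deposited, the call of miR-34c-3p was lost without FA pool 2, FA pool 3, O3 pool 1 or O3 pool 3 (adjusted p from 0.078 to 0.13), and that of miR-34b-3p without any pool but O3 pool 2 (from 0.055 to 0.15). miR-34a-5p, a p53 target that is not restricted to ciliated cells, was at 386, 762 and 409 RPMMM against 248, 177 and 261 and was not called (log2 fold change -1.13, adjusted p = 0.093). The summed level of the list was 10096 to 15372 RPMMM in the FA pools and 5449 to 9223 in the O3 pools.

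Among miRNAs of stratified and basal epithelium, miR-205-5p, a miRNA of basal cells, was lower. It was at 1433, 1307 and 1695.5 RPMMM in the FA pools and at 795, 751 and 754 in the O3 pools (log2 fold change -0.94, SE 0.19, adjusted p = 0.014 by limma), and its hairpin lies in an exon of the long noncoding RNA 4631405K08Rik (chr1:195333657-195333724, minus strand, mm9). The O3 pools lay close together, all below the FA pools, and the call was lost without FA pool 3 (adjusted p = 0.070). With all pools and median-of-ratios scaling the log2 fold change was -0.74 (adjusted p = 0.020). miR-31-5p (log2 fold change -0.83), miR-205-3p (-0.40) and miR-203-3p (-0.10) were not called.

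Leukocyte miRNAs showed no call. Of 4 tested members none passed the adjusted p. The median log2 fold change was -0.53 as deposited and -0.33 under median-of-ratios scaling. It includes miR-142-5p (log2 fold change -2.36), which passed the threshold through the FA group alone (mean 80.9 RPMMM against 33.6). An isomiR of miR-142-5p was more abundant, with means of 535 RPMMM in the FA and 642 in the O3 pools (log2 fold change 0.27). This isomiR enters neither the median nor the summed level of the list. The summed level of the list was 1580 to 2206 RPMMM in the FA pools and 1502 to 2538 in the O3 pools. miR-223-3p, the most abundant of the 4, is typical of neutrophils and other myeloid cells. miR-223-3p was at 923, 573 and 667 RPMMM in the FA pools and at 977, 838 and 1344 in the O3 pools. Its groups overlapped as deposited (log2 fold change 0.55, SE 0.23, adjusted p = 0.17) and not under median-of-ratios scaling (log2 fold change 0.74, adjusted p = 0.066). miR-342-3p, miR-142-3p and miR-142-5p overlapped between the groups, and miR-150-5p, a miRNA of mature lymphocytes, was at 0 in 5 of the 6 pools.

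The miRNAs induced in inflammation had 6 tested members and a median log2 fold change of -0.20. Of these, miR-146b-5p, a target of NF-κB that restrains Toll-like receptor signalling, was lower, at 8978, 7747 and 7489 RPMMM in the FA pools and 6016, 5973 and 6138 in the O3 pools (log2 fold change -0.41, SE 0.10, adjusted p = 0.035 by limma), a call that was lost under median-of-ratios scaling (-0.22, adjusted p = 0.21) and without any 1 pool but FA pool 1 (adjusted p from 0.064 to 0.13). miR-155-5p, which is induced in activated macrophages, was at 408, 513 and 495 RPMMM against 371, 263 and 288, without overlap and without a call (log2 fold change -0.63, adjusted p = 0.17). miR-146a-5p overlapped, with a log2 fold change of -0.15.

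The most abundant miRNA in these EVs was miR-21-5p, which is raised in many inflamed and proliferating tissues. It was at 108867, 96805 and 101698 RPMMM in the FA pools and at 113937, 103607 and 125317 in the O3 pools. These values overlapped and gave a log2 fold change of 0.15 (adjusted p = 0.37), whereas after median-of-ratios scaling all O3 pools lay above all FA pools (log2 fold change 0.35, adjusted p = 0.026).

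No tested vascular or mesenchymal miRNA was called among 10, whose median log2 fold change was -0.29. Of these, miR-145-3p and miR-199b-5p passed the threshold through the FA group alone. miR-199a-3p and miR-199b-3p, identical in sequence and nearly so in values, are counted separately but are 1 measurement. miR-126-3p and miR-126-5p are the 2 arms of a hairpin in the endothelial gene Egfl7. miR-126-3p was at 51.9, 113 and 190.5 RPMMM in the FA pools and at 161, 268 and 630 in the O3 pools (log2 fold change 1.53, SE 0.57, adjusted p = 0.11), and miR-126-5p at 29.8, 18.1 and 54.2 against 102, 97.3 and 127 (log2 fold change 1.77, SE 0.56, adjusted p = 0.078), the latter having passed the threshold through the O3 group alone. FA pool 3 overlapped the O3 pools for the former and no pool did for the latter. miR-143-3p, typical of smooth muscle, was at 4033, 3422 and 9990 RPMMM in the FA pools, the highest again being pool 3, and at 7650, 5174 and 5588 in the O3 pools. The muscle list had 2 tested members of 5 in the table, none called and miR-133a-3p tested through the FA group alone, and its summed level was 97.2, 523 and 2547 RPMMM in the FA pools and 61.6 to 89.9 in the O3 pools, with miR-133a-3p, miR-206-3p and both arms of miR-208b at 0 in every O3 pool. The part of this pool's muscle miRNAs in the results above was not tested beyond leaving the pool out.

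**Figure D3:**
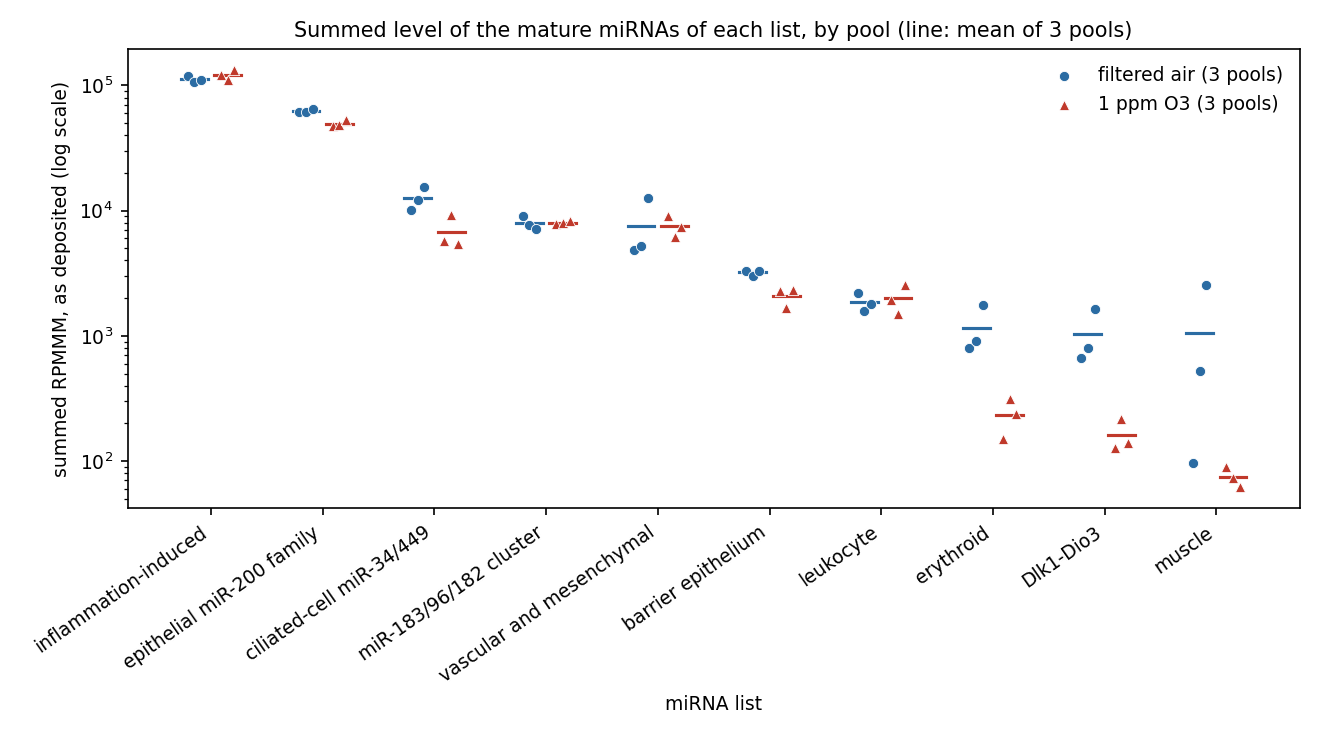
Summed RPMMM (log axis) of the mature miRNAs of each cell-type or cluster list in the 3 FA pools (circles) and the 3 pools exposed to 1 ppm O3 (triangles), as deposited, with group means as lines. As deposited, the miR-200, ciliated-cell, barrier, erythroid, Dlk1-Dio3 and muscle sums do not overlap between groups. The sum of all 402 mature miRNAs does not either, at 793291 to 798930 RPMMM in the FA pools and 753568 to 775299 in the O3 pools. Nor does that of the 180 in no list, at 81124 to 83911 against 67769 to 70642. The muscle sum ranges from 97.2 to 2547 within the FA group. Sums under median-of-ratios scaling were not made, so whether these sums overlap on that scale is not shown.

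The let-7 family, whose abundant 5p arms share the seed GAGGUAG and repress growth-promoting genes such as Lin28a and Hmga2, had 16 tested members. The median log2 fold change was -0.25 as deposited, close to the -0.24 of all tested miRNAs, and -0.05 under median-of-ratios scaling. As deposited 9 of the 16 were lower without overlap, where 26.9% of all tested miRNAs were, and after scaling 2 were lower and 3 higher, where 13.9% and 15.7% of all tested miRNAs were. let-7a-1-3p and let-7c-2-3p, identical in sequence and values, are counted separately in these.

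let-7g-5p was the one abundant member called, at 25056, 29962 and 28304 RPMMM in the FA pools and 21013, 19415 and 23158 in the O3 pools (log2 fold change -0.39, adjusted p = 0.036), and after scaling its log2 fold change was -0.19 (adjusted p = 0.22). As deposited the call was lost without FA pool 2, FA pool 3, O3 pool 1 or O3 pool 2 (adjusted p from 0.10 to 0.14). let-7f-5p, let-7b-5p and let-7c-5p, with log2 fold changes of -0.18, -0.17 and 0.08, were not called, and the first 2 of these were at 0.01 and 0.02 after scaling. let-7a-5p (-0.01) and let-7d-3p (0.05) were among the least changed of the 50 most abundant miRNAs.

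let-7b-3p, the less abundant arm of its hairpin (chr15:85537749-85537833, plus strand, mm9), was DE and lower, at 487, 294 and 388 RPMMM against 135, 180.2 and 80.1 (log2 fold change -1.60, SE 0.42, adjusted p = 0.041 by limma). The groups did not overlap, and after scaling the log2 fold change was -1.41 with an adjusted p of 0.068. Leaving out any 1 pool but O3 pool 2 also ended the call (adjusted p from 0.078 to 0.13). let-7a-1-3p and let-7c-2-3p count as 1 measurement (log2 fold change -0.68, adjusted p = 0.11).

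miR-16-1-3p, from a hairpin whose main product miR-16-5p restrains the cell cycle, was at 334.5, 296 and 369.7 RPMMM in the FA pools and at 102, 81.1 and 33.7 in the O3 pools. Every O3 pool lay below every FA pool, O3 pool 3 being the lowest. Its log2 fold change was -2.33 (SE 0.48, adjusted p = 0.015 by limma; -2.13 after scaling), and it was not called without FA pool 3 (adjusted p = 0.070). miR-16-5p itself was at 1981, 1341 and 1484 RPMMM against 1825, 1961 and 1875 (log2 fold change 0.26, adjusted p = 0.40).

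Among 61 hairpins with both arms tested, the less abundant arm had the lower log2 fold change in 36 and the higher in 25, with medians of -0.20 for the abundant and -0.40 for the less abundant arm. Arms were ranked by their unmodified forms alone. For miR-142-5p and miR-145-3p, ranked as less abundant, an isomiR exceeded the unmodified form of either arm, at log2 fold changes of 0.27 and -0.07. The share of the less abundant arm in the sum of both was lower in every O3 pool than in every FA pool for 14 hairpins and higher for 3. let-7a-1 and let-7c-2, both among the 14, have the same less abundant arm and so count as 1 measurement of it. Of the less abundant arms, 8 passed the threshold through the FA group alone and 2 through the O3 group alone. For miR-200b this share was 3.88%, 5.48% and 4.70% in the FA pools and 1.60%, 2.83% and 2.29% in the O3 pools. For miR-23b, with 9.43%, 8.22% and 10.4% against 3.87%, 4.14% and 5.81%, the 5p arm was lower (log2 fold change -0.95, adjusted p = 0.041) and the 3p arm not called (0.17). The call of miR-23b-5p was lost without any 1 pool but O3 pool 3 (adjusted p from 0.071 to 0.14). Summed over the 61 hairpins, the less abundant arms made up 6.98% to 8.22% of both arms in the FA pools and 5.56% to 6.83% in the O3 pools. Restricted to less abundant arms with a mean above 200 RPMMM, the count was 17 against 10 of 27 hairpins. A share of this kind does not depend on the scaling of the pool.

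**Figure D4:**
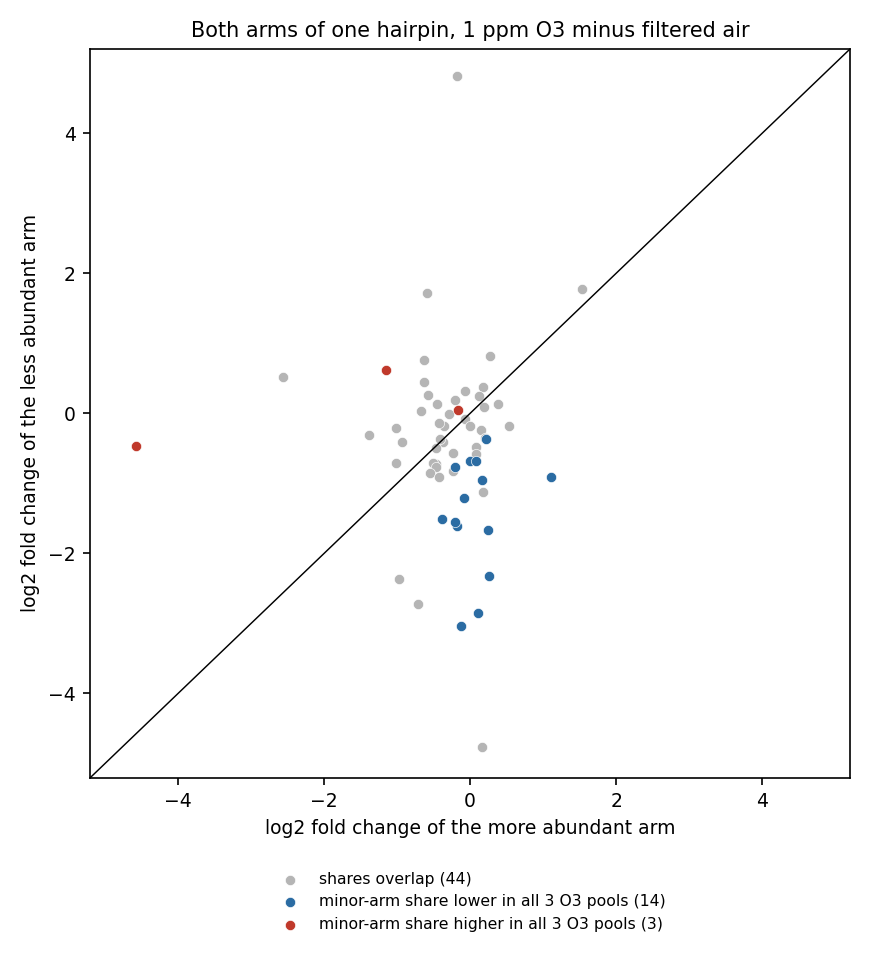
Log2 fold change (1 ppm O3 minus FA, as deposited) of the more abundant arm (x axis) and of the less abundant arm (y axis) of 61 hairpins, with the line of equal change. Of the points, 36 lie below the line and 25 above, and colours mark the 14 hairpins whose less abundant arm took a lower share, and the 3 with a higher share, in every O3 pool.

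miR-2137, miR-5115 and miR-5105 were DE and higher, with miR-5115 and miR-5105 tested through the O3 group alone. miR-2137 was at 4714, 641 and 579.8 RPMMM in the FA pools and at 26797, 37829.55 and 22582 in the O3 pools, a log2 fold change of 4.56 (SE 0.65, adjusted p = 0.0021 by limma), and 4.75 after scaling. The FA pools differed among themselves by a wide margin, pool 1 being the highest, and none reached the O3 pools. Without FA pool 1 the log2 fold change was 5.54. Its hairpin lies in an intron of Zfp185 (chrX:70237418-70237483, plus strand, mm9), and its mature sequence has a GC content of 85.7%, the highest of the 193 miRNAs with a sequence, whose median is 47.6%. Over these 193 miRNAs GC content and log2 fold change had a Pearson correlation of -0.05 and a Spearman correlation of -0.10. This is a description across miRNAs of the same 6 pools.

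miR-5115 was listed at 0, 25.9 and 0 RPMMM in the FA pools and at 5586, 6726 and 2065 in the O3 pools. The fitted log2 fold change of 10.48 (SE 1.08, adjusted p = 0.0003 by limma) depends on the constant added before the logarithm, and was 8.13 with 10 RPMMM added and 6.70 with values raised to a floor of 40 RPMMM, the call being kept in each. It is that of the exact mature form, and with isomiRs added to their mature forms it was 4.05, the call again being kept. miR-5105 was at 41.5, 40.1 and 28.0 RPMMM against 389, 346 and 225 (log2 fold change 3.08, SE 0.34, adjusted p = 0.00028), and like miR-5115 it passed the threshold through the O3 group alone. For both, the direction of the means followed from that rule. In its exact mature form miR-5109 was not called, at 70.0, 165 and 121 RPMMM against 287, 626 and 139. Its most abundant isomiR was at 251 to 431 RPMMM in the FA pools and 3807 to 7376 in the O3 pools (log2 fold change 4.03). That isomiR was not tested on its own. IsomiRs were compared only where they passed the same threshold as the mature miRNAs, so not all in the table were examined. miR-2137, miR-5115, miR-5105 and miR-5109 had 3, 14, 8 and 10 such isomiRs, and every one of these was higher in the O3 group. Most of those of miR-5115 and miR-5105 passed through the O3 group alone, so their direction followed from that rule.

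miR-322-3p, from an X-linked cluster with miR-351, miR-450, miR-503 and miR-542 that is active in growing and differentiating cells, was DE and higher (chrX:50407432-50407526, minus strand, mm9). It was at 309, 268 and 368 RPMMM in the FA pools and at 820.4, 726 and 508 in the O3 pools, a log2 fold change of 1.10 (SE 0.27, adjusted p = 0.036 by limma), and 1.30 after scaling. The call was lost without any 1 pool but O3 pool 3 (adjusted p from 0.053 to 0.14). The 2 isomiRs of miR-322-3p that passed the threshold had log2 fold changes of -0.20 and -0.07. With isomiRs added to their mature forms miR-322-3p was not called (log2 fold change 0.49, adjusted p = 0.11). Of the 7 tested miRNAs of the cluster, 4 were above 0, where 76 of all 223 tested miRNAs were. The 4 include miR-503-5p (log2 fold change 2.11), which passed the threshold through the O3 group alone. Below 0 were miR-351-5p, the most abundant member (-0.55), miR-351-3p (-0.86) and miR-322-5p (-0.91). Of these, miR-322-5p passed the threshold through the FA group alone. DE and higher was 1 of the 7, where 1.79% of all tested miRNAs were. The median log2 fold change of the 7 was 0.39. The summed level of the cluster was 2854 to 5145 RPMMM in the FA pools and 2648 to 3945 in the O3 pools.

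miR-22-3p and miR-140-3p were higher by less than 2-fold. miR-22-3p, widely expressed and known as a regulator of growth and metabolic signalling, was at 3825, 4390.3 and 4257 RPMMM in the FA pools and at 5818, 6277 and 5886 in the O3 pools (chr11:75277218-75277312, plus strand, mm9, in exons of Tlcd2 and of 2210403K04Rik). Its log2 fold change was 0.53 (SE 0.09, adjusted p = 0.0077 by limma), and 0.72 after scaling. miR-140-3p, encoded in an intron of Wwp2 and best known from cartilage, was at 2974, 2524 and 2207 RPMMM against 3929, 3255 and 3619 (log2 fold change 0.49, SE 0.14, adjusted p = 0.049). The groups did not overlap for either. The call of miR-22-3p was kept without any 1 pool, and that of miR-140-3p was lost without any but FA pool 1 (adjusted p from 0.061 to 0.16). An isomiR of miR-140-3p was more abundant than the mature form, with means of 3809.6 RPMMM in the FA and 3675.6 in the O3 pools, and with isomiRs added to their mature forms the log2 fold change of miR-140-3p was 0.19 (adjusted p = 0.37).

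The miR-23/27/24 clusters had a median log2 fold change of 0.17 over 9 tested members as deposited, with 7 above 0 (76 of all 223 tested were). Higher without overlap were 4 of the 9 (7.62% of all tested miRNAs were). After scaling the median was 0.37, with 7 higher without overlap (15.7% of all tested miRNAs were). miR-23a-3p was at 19557, 19304 and 20263 RPMMM in the FA pools and at 23934, 23522 and 24117 in the O3 pools. Its pools lay close together within each group (log2 fold change 0.28, adjusted p = 0.11), and after scaling it was called at 0.47 (adjusted p = 0.013). miR-23b-3p, miR-26a-5p, miR-30a-5p and miR-30d-5p were likewise called higher only after scaling, at log2 fold changes of 0.36, 0.28, 0.38 and 0.44 that had been 0.17, 0.09, 0.19 and 0.25 as deposited. The miR-30 family as a whole, with 9 tested members, had medians of -0.08 and 0.11.

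miR-221-3p and miR-222-3p lie next to each other on chromosome X and share the seed printed above. miR-222-3p was at 3337, 3419 and 3630.02 RPMMM in the FA pools and at 5814, 5341 and 5525 in the O3 pools, and miR-221-3p was at 3162, 4168 and 4205 against 2488, 2232 and 2885. The former was higher and the latter lower in every O3 pool, with log2 fold changes of 0.68 (adjusted p = 0.074) and -0.60 (adjusted p = 0.093), neither called as deposited. After scaling miR-222-3p was called at 0.88 (adjusted p = 0.015) and miR-221-3p was at -0.40 (adjusted p = 0.18). The difference between the pair was not tested.

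Further abundant miRNAs were lower. miR-320-3p, whose short hairpin is made without Drosha, was at 10945, 15289.6 and 14412 RPMMM in the FA pools and at 7009, 7226 and 6127 in the O3 pools (log2 fold change -0.99, SE 0.16, adjusted p = 0.0042 by limma; chr14:70843317-70843398, plus strand, mm9), and -0.79 after scaling. No O3 pool reached an FA pool on either scale, and its 3 isomiRs that passed the threshold were lower too. miR-423-3p and miR-328-3p had log2 fold changes of -0.77 (adjusted p = 0.039) and -0.74 (adjusted p = 0.048), both without overlap as deposited and neither called after scaling or without FA pool 2, FA pool 3, O3 pool 1 or O3 pool 3 (adjusted p from 0.10 to 0.18 over both). The group of miR-10, miR-99, miR-100 and miR-125, 12 members with a median of -0.44 as deposited and -0.25 after scaling, had no call.

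**Figure D5:**
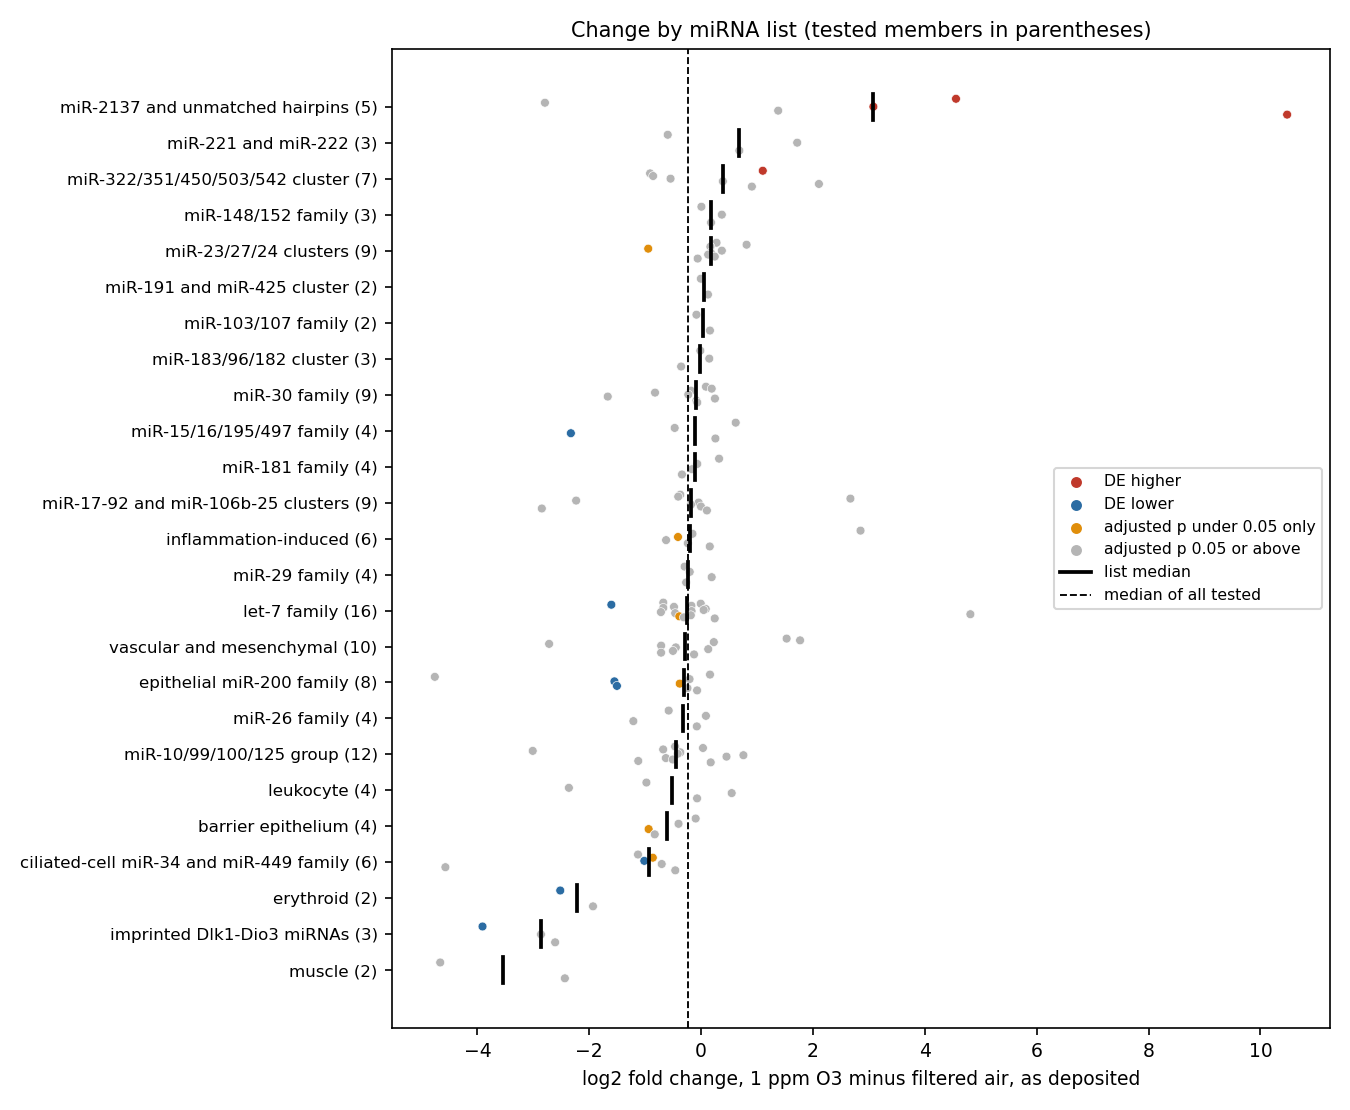
Log2 fold change (1 ppm O3 minus FA, as deposited) of the tested miRNAs of each list with at least 2 tested members, coloured by call, with list medians as bars and the median of all 223 miRNAs as a dashed line at -0.24. All 3 Dlk1-Dio3 members and 1 of the 2 muscle members passed the threshold on low values through the FA group alone, so the place of these medians below the line followed from the way members were chosen.

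Several groups held no call under either scaling. The miR-29 family had a median log2 fold change of -0.24, the miR-17-92 and miR-106b-25 clusters of -0.18 over 9 members and the miR-181 family of -0.12. The cluster of miR-183, miR-96 and miR-182, at -0.01, the family of miR-148 and miR-152, at 0.18, that of miR-103 and miR-107, at 0.04, and the cluster of miR-191 and miR-425, at 0.06, were close to 0 as deposited. miR-191-5p (6267 to 8110 RPMMM in the FA pools and 6265 to 7387 in the O3 pools), miR-182-5p and miR-375-3p had log2 fold changes of 0.00, -0.01 and -0.05, and their pools overlapped. The lists of miR-15, miR-16 and their relatives and of miR-26 had medians of -0.11 and -0.33 and did hold calls, the former miR-16-1-3p and the latter, after scaling, miR-26a-5p.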

How the data were processed

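EV RNA of pooled BALF was isolated by the authors with an exoRNeasy kit, and NEXTflex v3 small RNA libraries were sequenced. The authors trimmed, aligned to mm9 and quantified reads with miRquant 2.0, and deposited 1 column of RPMMM per pool (RPM with only miRNA reads in the total). Read totals were estimated from the steps between low values. Since 69.8% to 86.3% of low values lay on whole-read steps, no count test was run. 

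The 9 pools entered 1 model of log2(RPMMM + 1) with a mean per exposure (limma 3.58.1 in R 4.3.3, with a variance trend), for miRNAs above 50 RPMMM on average in the 6 pools, with Benjamini-Hochberg adjustment over all 223. For a single value an exact permutation test (two-sided) was used, where 3 pools against 3 cannot give a p under 0.1. The study lists a single 1 ppm O3 session and separate FA sessions, without tying pools to the latter, so p-values measure the spread between these pools only. Alternatives changed the scaling, the added constant, the minimum mean, the pools in the model and the treatment of copies and isomiRs, and left out each pool in turn. Tables were made with Python 3.11.15, pandas 2.3.3, numpy 2.4.6, scipy 1.17.1 and matplotlib 3.10.9. Named miRNAs were all DE miRNAs, the 10 most abundant and the 5 least changed of the 50 most abundant. Up to 10 with an adjusted p under 0.05 that were not DE were named too. Further ones were taken from the 4 most abundant of each list, not all of which are named. Other miRNAs named were chosen after their values were seen. The animals' sex is from the study's methods. The miRNAs, their lists and the alternatives were chosen with earlier results of these data known. Hairpin positions (GENCODE vM1, mm9) were found for 153 of 184 hairpins.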

Additional observations from a re-analysis of the deposited data

Results flagged for a closer look

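The isomiR entries, which the comparison of mature miRNAs does not use, took a larger share of all values after 1 ppm O3, at 10.6% ± 1.64 (SD, n = 3 pools) against 7.05% ± 0.21 in the FA pools, with no overlap between the groups (two-sided exact permutation p = 0.1, which no split of 3 pools against 3 can undercut). IsomiRs of hairpins other than miR-2137 and the unmatched hairpins took 5.97% ± 0.08 against 6.65% ± 0.14, so the direction was the opposite for these.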

How the results depend on the processing

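The results were recomputed under 20 alternatives. The number of DE lower miRNAs, 8 as reported, was 5 under median-of-ratios scaling and 5 with miR-2137 and the unmatched hairpins left out of the total, 13 with 10 RPMMM added before the logarithm and 14 with values raised to a floor of 40 RPMMM. With 1 pool left out in turn it ranged from 2 to 10 (2 without FA pool 3, 4 without O3 pool 1, 5 without FA pool 2), the number of DE higher miRNAs from 3 to 5, and the number with an adjusted p under 0.05, 23 as reported, from 7 to 27 (7 without FA pool 3, 9 without O3 pool 1, 11 without FA pool 2, 15 without O3 pool 3). With the 2 ppm O3 pools left out of the model, 12 miRNAs were DE and lower and 34 had an adjusted p under 0.05. The latter number was 33 with the floor of 40 RPMMM. The cause of these shifts was not tested. miR-2137, miR-5115, miR-378-3p and miR-200b-5p were DE in all 20 alternatives, miR-5105 in all 19 that tested it, miR-16-1-3p in 19, miR-127-3p in 18, miR-200a-5p in 15, miR-322-3p in 13, miR-34c-3p in 12, and let-7b-3p and miR-451 in 10 each. miR-22-3p and miR-320-3p kept an adjusted p under 0.05 in all 20. The uncalled log2 fold changes of let-7b-5p (0.022 and 0.0229) and let-7f-5p (0.0113 and 0.0122) turned above 0 under median-of-ratios scaling with 9 and with 6 pools in the model. Values that are listed at 0, which may stand for up to about 10 reads, limit what can be said of miRNAs below some 40 RPMMM. No paired analysis was possible because the labels name pools by letters of their own, and the pool numbers used here tie no pools across exposures.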

Other observations

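Among the 81 tested miRNAs that belong to no list, the median log2 fold change was -0.29 as deposited and -0.09 under median-of-ratios scaling, and 5 were called, miR-22-3p and miR-140-3p higher and miR-320-3p, miR-328-3p and miR-423-3p lower. miR-744-5p was higher in every O3 pool, at 72.6, 16.5 and 49.5 RPMMM in the FA pools and 139, 130.2 and 153 in the O3 pools. It was not called (log2 fold change 1.81, adjusted p = 0.098 by limma). It passed the threshold through the O3 group alone, so the direction of its means followed from that rule. miR-185-5p was lower in every O3 pool, at 584, 528 and 874 RPMMM against 249.6, 139 and 429.75, also without a call (log2 fold change -1.39, adjusted p = 0.075). As deposited, 7.62% of all tested miRNAs were higher and 26.9% lower in every O3 pool.

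miR-486-5p and miR-3107-5p, listed as separate miRNAs, had nearly the same value in every pool, such as 339 and 338 RPMMM in FA pool 1, so their log2 fold changes of -1.93 count as 1 measurement.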
